A study of Mus musculus with 3 samples.

Results

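The genes described here encode matricellular proteins, secreted proteins that bind the matrix and cell surface and tune how cells respond to both, together with the adhesive matrix protein fibronectin. The members were the 10 genes Thbs1, Thbs2, Thbs3, Thbs4, Tnc, Fn1, Sparc, Spp1, Postn and Vcan, taken by symbol, and each had 1 row among the 20308 genes of the table. RNA sequencing of 3 libraries, which formed 1 group, gave the transcript levels. Each library came from about 200000 ZsGreen-positive cells sorted from enzymatically digested hindlimb muscle of Pax7-ZsGreen mice aged 3 months, in which the fluorescent reporter follows Pax7, the transcription factor of muscle stem (satellite) cells. Muscle of several age-matched animals was collected, and the sample labels give the tissue as tibialis anterior. With no second condition, the data give levels and the spread between libraries. Whether each library had its own pool of animals is not stated, so the variation that the p-values are based on is that among these 3 samples and may be technical. Levels are in TPM, a share of all transcripts that takes gene length into account, and are given as mean ± SD (n = 3). The table keeps no read totals, so depth is unknown and no counting interval can be given. In sorted populations, fewer cells of a type and less RNA per cell cannot be told apart.

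Thrombospondins are large calcium-binding glycoproteins that assemble into trimers (Thbs1, Thbs2) or pentamers (Thbs3, Thbs4) and bind integrins, CD36 or CD47. Fibronectin (Fn1) is assembled by cells into fibrils through integrin α5β1 and is a component of the niche in which satellite cells lie. Tenascin C (Tnc) and versican (Vcan) belong to the transitional matrix of growing or injured tissue, while Sparc, periostin (Postn) and osteopontin (Spp1) bind collagen, other matrix proteins or integrins.

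The members fell into 3 tiers of level. Sparc stood alone at the top at 688 ± 68.6 TPM, and 3 thrombospondins followed between 145 and 172 TPM. Fn1, Postn, Tnc, Vcan and Thbs3 lay between 12.1 and 26.3 TPM, and Spp1 came last, at values from 0 to 18.6 TPM. Tests of level used limma on log2(TPM + 0.1) over the 12822 genes above 0 in at least 1 library, with Benjamini-Hochberg adjustment over all of them and a threshold of 0.05. By this test 9 of 10 members were above 1 TPM, against 60.8% of all genes tested. Above 10 TPM there were 7 of 10 members, against 38.2% of genes tested. Above 100 TPM there were 4 of 10 members, against 9.54% of genes tested, and the remaining 6 were below 100 TPM, against 85.1%. The members' median was 25.2 TPM, beside 11.5 TPM over the genes tested. Without a variance trend in the fit, so that the prior variance is the same at every level, 2 members rather than 4 were above 100 TPM. Results given below without 1 replicate are from fits to 2 libraries, whose p-values are not comparable with those from 3.

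**Figure D1:**
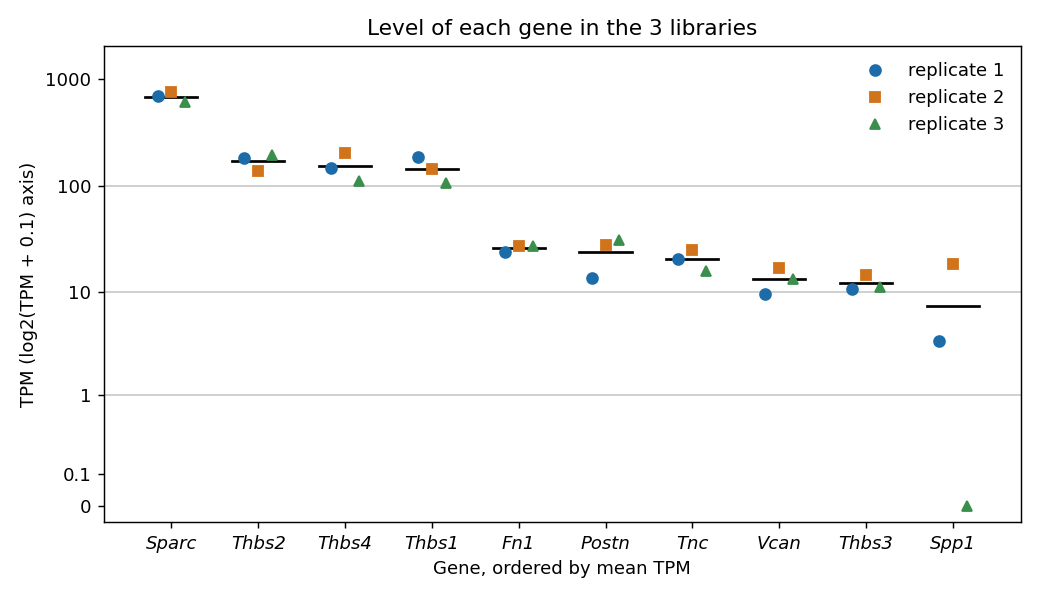
TPM of each gene in the 3 libraries on a log2(TPM + 0.1) axis, with points for replicates 1 to 3, a black bar for the mean and grey lines at 1, 10 and 100 TPM. Sparc lies above every other gene in each library, Thbs1, Thbs2 and Thbs4 lie above 100 TPM, and Spp1 is listed at 0 in replicate 3.

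Among the 4 thrombospondins, 3 were high and Thbs3 was low. Of the 3 high genes, Thbs1 had no matched RefSeq window. The 250 bases before the RefSeq transcript start (GRCm38.p6) of 2 high members and of Thbs3 are shown for that contrast, 5′ to 3′ on the gene's strand, with capitals marking matches to the motifs named after them. The windows are chr17:14694263-14694512 on the minus strand for Thbs2, chr13:92794819-92795068 on the minus strand for Thbs4 and chr3:89214930-89215179 on the plus strand for Thbs3.
Thbs2: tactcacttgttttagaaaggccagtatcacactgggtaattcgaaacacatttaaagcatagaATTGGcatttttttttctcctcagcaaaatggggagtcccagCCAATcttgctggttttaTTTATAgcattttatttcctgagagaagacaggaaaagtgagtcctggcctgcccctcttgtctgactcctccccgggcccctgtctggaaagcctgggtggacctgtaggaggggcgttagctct
Thbs4: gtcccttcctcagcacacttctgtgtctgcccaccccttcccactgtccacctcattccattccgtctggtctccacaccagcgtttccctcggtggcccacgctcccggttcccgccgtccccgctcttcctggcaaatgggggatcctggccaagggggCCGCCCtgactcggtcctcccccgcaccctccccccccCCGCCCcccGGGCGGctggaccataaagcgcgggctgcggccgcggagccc
Thbs3: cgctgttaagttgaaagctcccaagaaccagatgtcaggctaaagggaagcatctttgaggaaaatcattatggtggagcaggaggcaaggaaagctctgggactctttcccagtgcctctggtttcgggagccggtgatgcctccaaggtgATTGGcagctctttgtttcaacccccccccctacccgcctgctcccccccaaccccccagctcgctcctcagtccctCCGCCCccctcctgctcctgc

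Both strands of each window were searched for 4 motifs. The TATA box was searched as the letters TATAAA, found in 12.4% of 32851 RefSeq windows of the same length. The CCAAT box, as its name spells, was in 33.8% of them. The GC box, GGGCGG, was in 32.7%, and the AP-1 site, TGANTCA, in 6.75%. The Thbs2 window held a TATA box match with its first base at -126 from the start and CCAAT matches at -186 and -144. The Thbs4 window held 3 GC box matches, at -89, -51 and -42. The Thbs3 window held a CCAAT match at -98 and a GC box match at -21. G and C made up 46.8% of the Thbs2 window, 70.8% of the Thbs4 window and 58.8% of the Thbs3 window, beside a median of 52.4% over all RefSeq windows. RefSeq windows were matched for 8 of the 10 members, 11 windows in all, and none was matched for Thbs1 or Fn1. The shares above are per window, and by window the TATA box letters were in 5 of the 11. The CCAAT box was in 4, the GC box in 5 and the AP-1 site in 0. By gene, the TATA box letters, the CCAAT box and the GC box each occurred before 4 of the 8 members, and the AP-1 site before 0. The windows of Tnc overlap each other and carry the same matches. The Sparc window and one of the Spp1 windows lie largely in annotated exons, over 238 and 250 bases. Thbs2 and Thbs4 had no searched motif in common. These matches describe letters in a window and were not tested as sites.

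Thbs2, an inhibitor of angiogenesis that also binds matrix metalloproteinase 2, lies on chromosome 17 (14665500 to 14694235, GRCm38, minus strand). It gave 181, 138.9 and 195 TPM in replicates 1, 2 and 3, and so was lowest in replicate 2. Its mean was 172 ± 29.0 TPM, above 100 TPM (limma adjusted p = 0.000476). Thbs4, a pentameric thrombospondin prominent in tendon and at the muscle-tendon junction, lies on chromosome 13 (92751590 to 92794818, minus strand). It gave 146, 205 and 110.4 TPM, highest in replicate 2. Its mean of 154 ± 47.9 TPM was above 100 TPM (limma adjusted p = 0.00756), but not without replicate 2 (limma adjusted p = 0.0614).

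Thbs1, the activator of latent TGF-β and a ligand of CD36 and CD47, lies on chromosome 2 (118111876 to 118127133, plus strand). Its libraries gave 185, 143 and 106 TPM, so the highest was 1.74 times the lowest. The mean was 145 ± 39.3 TPM, above 100 TPM (limma adjusted p = 0.0120) but not without replicate 1 (limma adjusted p = 0.0786). Without a variance trend neither Thbs1 (limma adjusted p = 0.164) nor Thbs4 (limma adjusted p = 0.139) passed at 100 TPM. Thbs3, a pentameric thrombospondin, lies on chromosome 3 (89215180 to 89226837, plus strand) and gave 10.7, 14.7 and 11.1 TPM. At 12.1 ± 2.19 TPM it was above 1 TPM (limma adjusted p = 3.7e-05) and below 100 TPM (limma adjusted p = 0.000246), and its position against 10 TPM was not decided (limma adjusted p = 0.588). Its exons overlap those of Mtx1, a mitochondrial outer membrane protein gene on the opposite strand, over 318 bases. Mtx1 gave 21.7, 16.2 and 37.0 TPM. Since no strand setting is given in the sources used here, reads from that overlap cannot be told apart. The same limit holds for exon overlaps of Fn1 with Apol7d (292 bases), Thbs1 with Gm29233 (208 bases) and Tnc with 8030451A03Rik (176 bases). These are also on opposite strands, and no level was available for Apol7d, Gm29233 or 8030451A03Rik.

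Differences within the family were taken inside each library on the log2(TPM + 0.1) scale. Thbs2 exceeded Thbs3 by 4.07, 3.24 and 4.12, a mean of 3.81 ± 0.498 (14.0-fold, exact sign-flip permutation p = 0.25, two-sided). Thbs4 exceeded Thbs3 by 3.62 ± 0.274 (12.3-fold) and Thbs1 exceeded it by 3.54 ± 0.484 (11.7-fold), each in 3 of 3 libraries and with an exact permutation p of 0.25. That is the smallest p that 3 libraries allow, so no pair could pass 0.05. Among the high members the order changed between libraries. Thbs2 exceeded Thbs4 in 2 of 3 libraries by a mean of 0.19 ± 0.698, Thbs4 exceeded Thbs1 in 2 of 3 by 0.08 ± 0.434, and Thbs2 exceeded Thbs1 in 1 of 3 with a mean of 0.27 ± 0.521. In these 3 pairs the mean difference was smaller than its SD. Of the 6 thrombospondin pairs, the 3 with Thbs3 had library ranges that did not overlap. The 4 thrombospondins summed to 523, 501.2 and 422 TPM, 38.2% ± 1.96 of the members' total.

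Sparc, a collagen-binding calcium-binding protein of basement membranes and bone, carried more transcript than the other 9 members together. It lies on chromosome 11 (55394500 to 55423183, minus strand). Its libraries gave 699, 750.1 and 614 TPM, which made up 54.1%, 54.9% and 54.6% of the members' total. The mean of 688 ± 68.6 TPM was above 100 TPM (limma adjusted p = 1.47e-08). Of the genes tested, 97.96% had a lower mean. Its lowest library, at 614 TPM, was above the highest value of any other member, which was 205 TPM for Thbs4. Sparc exceeded Thbs2, the next in the order, by 2.01 ± 0.391 on the log2 scale (4.04-fold, 3 of 3 libraries, exact permutation p = 0.25).

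Fn1 was far below the upper tier and varied little between libraries. The gene lies on chromosome 1 (71585520 to 71653200, minus strand), with 46 exons in its longest coding transcript, and gave 23.9, 27.5 and 27.4 TPM. The mean of 26.3 ± 2.08 TPM was above 10 TPM (limma adjusted p = 0.000894) and below 100 TPM (limma adjusted p = 0.000232). Thbs1, the member next above it, exceeded Fn1 by 2.42 ± 0.4996 on the log2 scale (5.36-fold, 3 of 3 libraries, exact permutation p = 0.25), with no overlap of library values. Fn1 has 9 annotated coding transcripts, and the gene-level table does not separate its spliced forms.

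Postn, a fasciclin-domain protein of collagen-rich tissue, lies on chromosome 3 (54361109 to 54391037, plus strand). It gave 13.7, 28.0 and 30.8 TPM, so replicate 1 was the low library. The mean of 24.2 ± 9.19 TPM was above 10 TPM (limma adjusted p = 0.0107), but not without replicate 3 (limma adjusted p = 0.0551) or without a variance trend (limma adjusted p = 0.0725). Tnc, a hexameric anti-adhesive protein, lies on chromosome 4 (63959785 to 64047015, minus strand). Its libraries gave 20.7, 24.9 and 15.9 TPM, lowest in replicate 3. The mean of 20.5 ± 4.51 TPM was above 10 TPM (limma adjusted p = 0.0173), but not without replicate 2 (limma adjusted p = 0.163).

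Vcan, a large chondroitin sulphate proteoglycan that binds hyaluronan, lies on chromosome 13 (89655312 to 89742509, minus strand). It gave 9.72, 16.99 and 13.3 TPM. At 13.3 ± 3.64 TPM it was above 1 TPM (limma adjusted p = 2.31e-05) and was not decided against 10 TPM (limma adjusted p = 0.427). Vcan has the longest model of the set, with a longest coding transcript of 12427 bases, and 8 coding transcripts that the table does not separate.

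Spp1, a secreted phosphoprotein of bone, kidney and activated macrophages, was the member on which the libraries differed most. It lies on chromosome 5 (104435118 to 104441050, plus strand). It gave 3.41 and 18.6 TPM in replicates 1 and 2 and was listed at 0 in replicate 3. No level against 1 TPM was decided (limma adjusted p = 0.713). Without replicate 3 Spp1 was above 1 TPM (limma adjusted p = 0.000370), in a fit to 2 libraries at 3.41 and 18.6 TPM. With all 3 libraries Spp1 was below 100 TPM (limma adjusted p = 0.00678), but not without a variance trend (limma adjusted p = 0.0534). Part of its longest coding transcript, 10.2% of 31-base words, also occurs in the overlapping annotated gene Gm42793. For the other members that share was at most 2.44% (Thbs1) and was 0% for 7 of them.

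Ordered by mean, 2 of the 9 neighbouring pairs had library values that did not overlap, Sparc over Thbs2 and Thbs1 over Fn1. The pairs Fn1 and Postn, Postn and Tnc, and Vcan and Thbs3 differed by 0.20 ± 0.521, 0.18 ± 0.774 and 0.11 ± 0.215 on the log2 scale, each less than its SD. Tnc exceeded Vcan in 3 of 3 libraries by 0.63 ± 0.421 (exact permutation p = 0.25), although the library ranges overlapped. Thbs3 exceeded Spp1 in 2 of 3 libraries, with differences of 1.62, -0.34 and 6.80, the last being the library with Spp1 at 0.

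**Figure D2:**
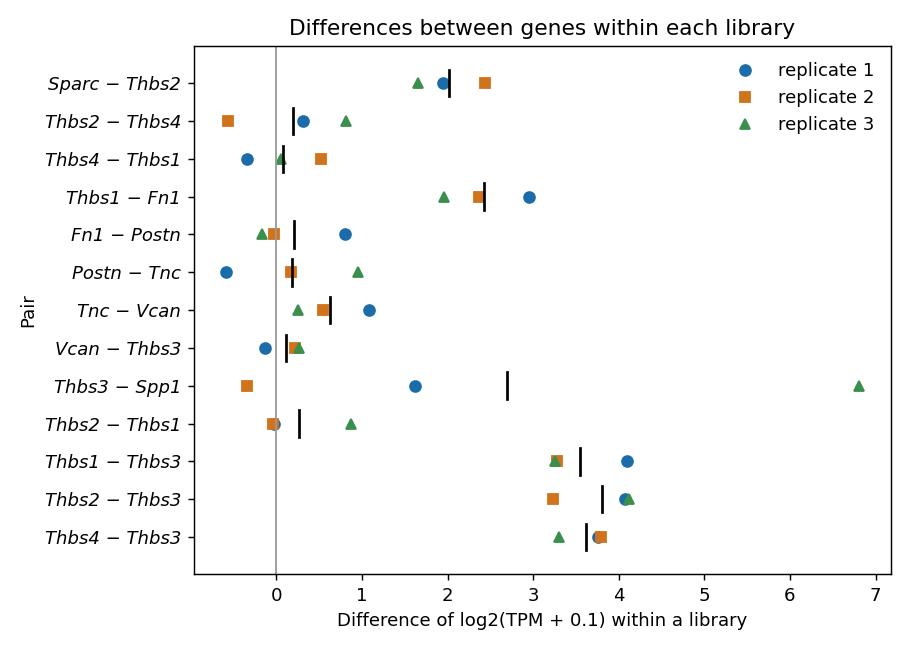
Difference of log2(TPM + 0.1) within each library for neighbouring genes and for the remaining thrombospondin pairs, with points for the 3 libraries, a black bar for the mean and a grey line at 0. The pairs with Thbs3 as the lower thrombospondin lie between 3.24 and 4.12, whereas Thbs2, Thbs4 and Thbs1 lie on both sides of 0 against each other.

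The spread between libraries, as the SD of log2(TPM + 0.1), ranged from 0.12 for Fn1 to 3.85 for Spp1. To read these, each SD was set beside genes whose mean TPM lay within a factor of 2. Of 3388 such genes around Fn1, 5.90% had a smaller SD, and their median SD was 0.47. Thbs3 (SD 0.25) was likewise among the steadier genes of its level, with 11.7% of 3628 genes having a smaller SD. Thbs4 (SD 0.45) and Thbs1 (SD 0.40) lay at the other side, with 88.6% of 1415 and 83.1% of 1487 genes having a smaller SD. Spp1 exceeded 90.1% of 3452 genes. Sparc (SD 0.15) was near the median of 0.14 for its level. These shares describe 3 libraries and were not tested.

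**Figure D3:**
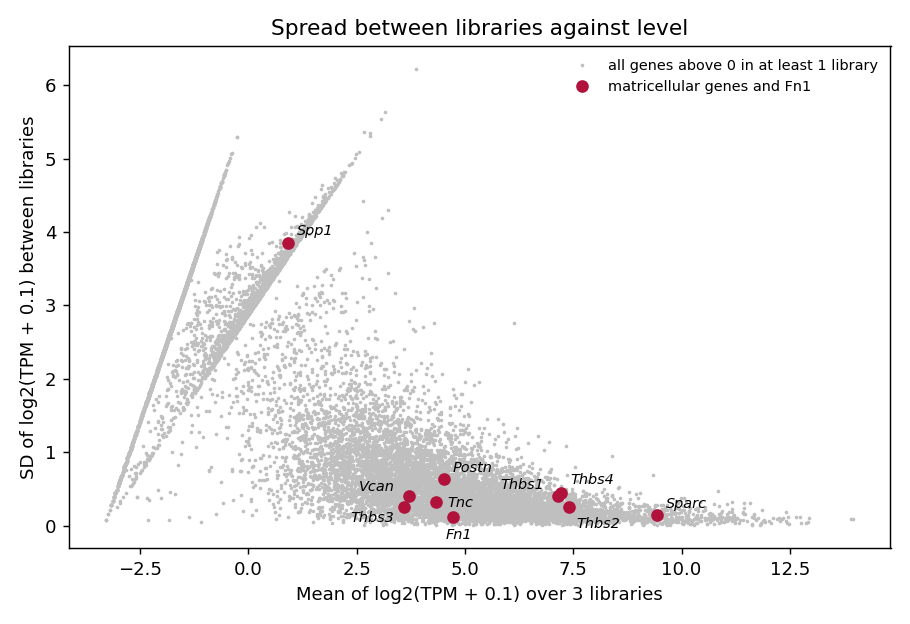
SD of log2(TPM + 0.1) between the 3 libraries against the mean of log2(TPM + 0.1) for every gene above 0 in at least 1 library (grey) and for the 10 genes (red). Fn1, at an SD of 0.12, lies at the lower edge of genes of its level, and Spp1, at 3.85, lies in the band of genes listed at 0 in some library.

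Receptors for these proteins were measured beside the ligands, grouped by the ligand they bind. Of all genes tested, 60.8% were above 1 TPM, 38.2% above 10 TPM and 9.54% above 100 TPM. Those shares stand beside the list counts here and below. Of 9 fibronectin receptor genes, 6 were above 1 TPM, 4 above 10 TPM and 3 above 100 TPM by the limma test, and the list's median was 12.6 TPM beside 11.5 TPM over all genes tested. The integrin β1 subunit Itgb1 averaged 964 ± 66.3 TPM, the αv subunit Itgav 131 ± 13.2 TPM and the heparan sulphate co-receptor Sdc4 4135 ± 192 TPM. Itga5, the α subunit of the classical fibronectin receptor, gave 69.5, 42.4 and 36.4 TPM, all above the highest Fn1 library of 27.5 TPM. Fzd7, a Wnt receptor that acts with Sdc4 in fibronectin sensing, averaged 12.6 ± 3.58 TPM. Itga5, Fzd7 and the other partners named below 100 TPM were chosen after their values were seen.

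Of 9 thrombospondin receptors and binding proteins, 7 were above 1 TPM, 5 above 10 TPM and 3 above 100 TPM by the limma test, and their median was 52.8 TPM. Calreticulin (Calr), a chaperone that also binds Thbs1 at the cell surface, averaged 2777 ± 475 TPM, and Cd36 averaged 52.8 ± 10.7 TPM. Calr gave 2379, 2649 and 3303 TPM and the scavenger receptor Cd36 51.2, 43.0 and 64.2 TPM, both highest in replicate 3, where Thbs1 was lowest. Cd47 gave 23.9, 9.19 and 5.97 TPM, highest in replicate 1 as Thbs1 was. Of the 10 receptors of tenascin, osteopontin and periostin, 7 were above 1 TPM, 6 above 10 TPM and 4 above 100 TPM by the limma test, and their median was 40.9 TPM. Cd44, the hyaluronan receptor that also binds osteopontin, averaged 763 ± 81.8 TPM. Itga9, the α subunit of a tenascin C and osteopontin receptor, gave 1.31, 3.08 and 1.01 TPM and was not decided against 1 TPM (limma adjusted p = 0.69). Itgb3 was listed at 0 in replicate 2 and was at 1.65 and 1.63 TPM in replicates 1 and 3. Itgav, Itgb1 and Sdc4 are in more than 1 of these lists, so the counts are not independent.

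Genes that build, bind or cut the versican and hyaluronan matrix were listed by role. All 6 listed versican-cleaving proteases were above 1 TPM, 3 were above 10 TPM and 2 above 100 TPM by the limma test, and their median was 28.1 TPM. Adamts1 averaged 470.2 ± 23.4 TPM and Adamts4 197 ± 37.2 TPM, while Vcan itself was at 13.3 ± 3.64 TPM. In each library the lowest of the 2, Adamts4, was above every Vcan value, at 170.3, 182 and 239.8 TPM. Of 10 hyaluronan and versican partners, 4 were above 1 TPM, 3 above 10 TPM and 1 above 100 TPM by the limma test, and their median was 1.73 TPM. The hyaluronan synthase Has1 averaged 70.3 ± 7.08 TPM, while the link protein genes Hapln1 and Hapln3, whose products lock versican onto hyaluronan, were listed at 0 in all 3 libraries. Hapln1 and Hapln3 were therefore not tested, but count among the 10 and in the median.

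Of 12 collagens and other matrix partners, all were above 1 TPM, 11 above 10 TPM and 6 above 100 TPM by the limma test, and their median was 137 TPM. Without a variance trend 3 rather than 6 were above 100 TPM. Col3a1 averaged 585 ± 29.9 TPM, Col4a1, a basement membrane chain that Sparc binds, 447 ± 78.3 TPM, Col1a2 241 ± 69.7 TPM and Col4a2 150.3 ± 13.0 TPM. Bmp1, a procollagen protease, averaged 149 ± 14.4 TPM, Col5a1 147 ± 8.75 TPM, Dcn 128 ± 41.9 TPM, Col1a1 122 ± 42.9 TPM and the proteoglycan Bgn 109 ± 16.8 TPM. The means of Sparc and Col3a1 were thus close, and those of Fn1, Tnc and Vcan lay below 11 of the 12, the exception being Col12a1 at 12.01 ± 4.12 TPM.

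**Figure D4:**
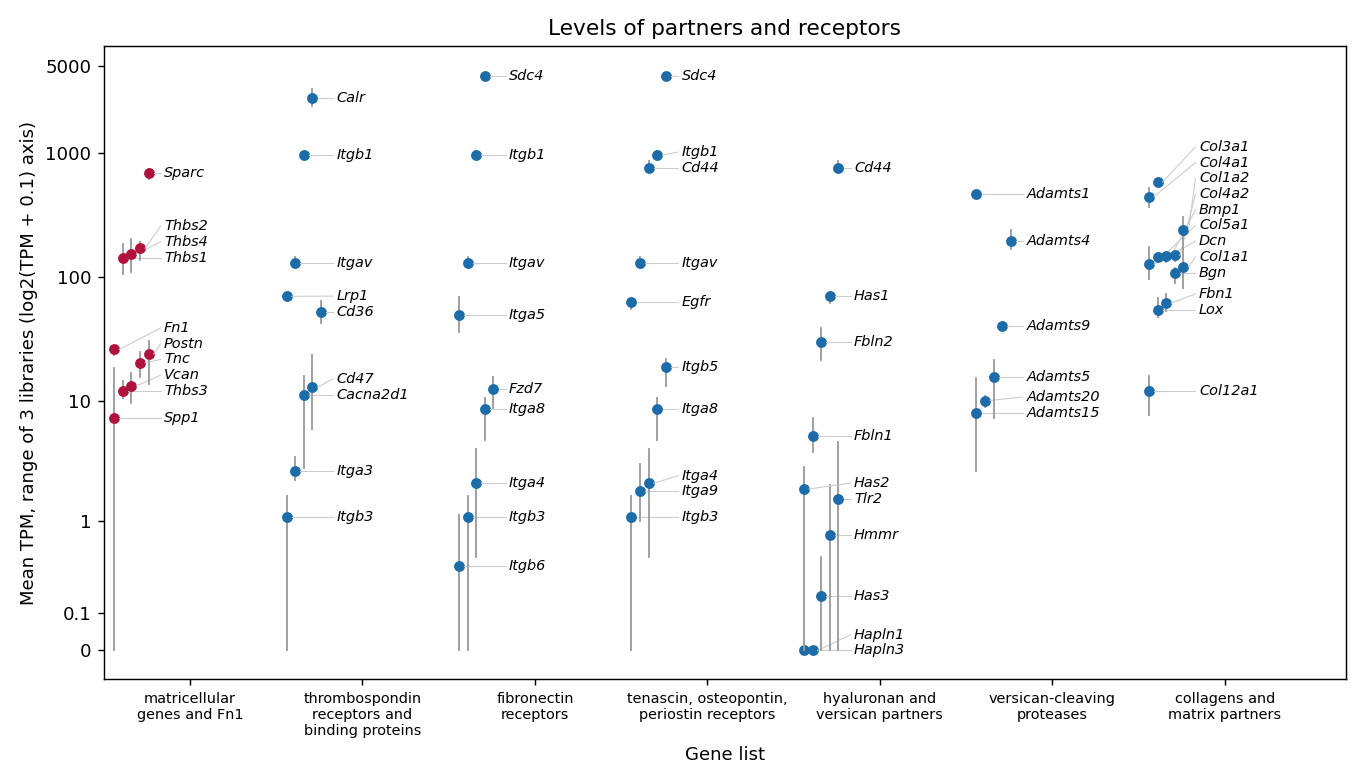
Mean TPM (points) with the range of the 3 libraries (vertical lines) on a log2(TPM + 0.1) axis, for the 10 genes in red and for 6 lists of receptors, proteases and matrix partners in blue; genes are shifted sideways so that ranges can be read. Sdc4 and Itgb1 lie above every member, and Hapln1 and Hapln3 sit at 0.

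Other matricellular genes and structural relatives of the members ranged from 0 to 769 TPM. Of 25 such genes, 10 were above 1 TPM, 8 above 10 TPM and 4 above 100 TPM by the limma test. A further 10 were 0 throughout, as were 7486 of the 20308 genes in the table, and the median of the 25 was 1.79 TPM. These 10 were not tested, so the counts out of 25 and the shares of genes tested have unlike denominators. Those above 100 TPM were the CCN genes Cyr61 at 769 ± 94.9 TPM and Ctgf at 600.1 ± 105 TPM, the Sparc relative Fstl1 at 213 ± 20.5 TPM and the tenascin Tnxb at 154 ± 14.99 TPM. Tnxb, which organises collagen fibrils, was at 170, 151 and 140.3 TPM, above all Tnc libraries, the highest of which was 24.9 TPM. The tenascins Tnr and Tnn, the osteopontin relatives Ibsp, Dmp1, Dspp and Mepe, the lectican Bcan, the Sparc relative Spock1 and the CCN genes Wisp2 and Wisp3 were listed at 0 in every library. Acan, the cartilage lectican, named after its values were seen, gave 0, 0.05 and 0 TPM.

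The sorted cells carried the defining satellite cell transcripts. All 10 satellite cell markers were above 10 TPM, against 38.2% of genes tested. They were led by Sdc4, also counted among the receptors above, Des at 1164 ± 17.9 TPM and Chodl at 508 ± 49.3 TPM. Pax7, at 51.4 ± 5.22 TPM, and Calcr, at 31.5 ± 3.45 TPM, were below 100 TPM by the limma test. The list summed to between 6610 and 7125 TPM in the libraries. Several members are also known products of other muscle cells, so marker lists of those cells are given as levels summed over each list in replicates 1, 2 and 3. The part of these cells in the members' levels was not tested.

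Thbs4 at 146, 205 and 110.4 TPM stood beside a tendon list that summed to 114, 139 and 124 TPM. Both were highest in replicate 2, but the list was lowest in replicate 1 and Thbs4 in replicate 3. Of 7 tendon genes 5 were above 1 TPM and 2 above 10 TPM (limma, Benjamini-Hochberg), against 60.8% and 38.2% of all genes tested. The same shares stand beside the platelet and fibro-adipogenic counts below. The highest were Fmod at 49.2 ± 15.01, Comp at 27.1 ± 10.4 and Mkx at 20.1 ± 11.96 TPM. Fmod, at 51.34, 63.04 and 33.25 TPM, had the library order of Thbs4. Among the members Sparc, Tnc and Spp1 had that order too and the remaining ones did not. Outside the tendon list Col1a1 and Col1a2 also had it. Tnmd, at 6.62, 26.05 and 20.11 TPM, was also highest in replicate 2. Comp was highest in replicate 1, and Mkx, Kera, Col11a1 and Scx in replicate 3. The tendon transcription factor Scx reached 8.63 TPM in replicate 3 and was 0 in the other libraries. Tnmd, Kera, Col11a1 and Scx were named after their values were seen. The lowest library of Thbs4 was above the highest Fmod library of 63.0 TPM. Thbs1, at 185, 143 and 106 TPM, stood beside a platelet list that summed to 24.0, 13.1 and 5.50 TPM. The order of that sum is the order of Thbs1, but none of its genes had it. The fibro-adipogenic sum given below had that order too. So did its genes Gsn, Dcn, Lum, Mfap5 and Pdgfra, while its other genes did not. A link of either list to Thbs1 was not tested. Of the 5 platelet genes 1, Itga2b, was above 1 TPM (limma, Benjamini-Hochberg), but not without replicate 1. Itga2b gave 18.4, 4.53 and 5.50 TPM, Pf4 0, 8.52 and 0 TPM and Gp1bb 5.59, 0 and 0 TPM, and Ppbp and Gp9, 2 defining platelet genes, were listed at 0 in all libraries. Ppbp and Gp9 were therefore not tested, but count among the 5. The fibro-adipogenic list summed to 2527, 2473 and 2241 TPM, and 7 of its 12 genes were above 1 TPM (limma, Benjamini-Hochberg). Its highest genes were Gsn at 888 ± 104, highest in replicate 1, Col3a1, highest in replicate 2, and Dpt at 572 ± 16.7 TPM, highest in replicate 3. Its surface markers differed. Ly6a gave 23.4, 41.2 and 36.2 TPM, above 10 TPM (limma adjusted p = 0.000216). The receptor Pdgfra gave 4.98, 0.11 and 0.06 TPM, below 10 TPM (limma adjusted p = 0.0453). Dcn, Lum, Mfap5, Ly6a and Pdgfra were named here after their values were seen. Postn, a fibroblast product, was lowest in replicate 1.

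Spp1, present in replicate 2 at 18.6 TPM, stood beside a leukocyte and macrophage list that summed to 252, 299 and 250 TPM. Of 11 leukocyte genes 3 were above 1 TPM (limma, Benjamini-Hochberg), against 60.8% of all genes tested, a share that also stands beside the list counts below. The 3 were Cd74 at 153 ± 17.2, Lyz2 at 70.1 ± 16.1 and the pan-leukocyte gene Ptprc at 9.92 ± 6.90 TPM, the last named after its values were seen. By library, Cd74, Lyz2, Ptprc, Csf1r, Itgam and Emr1 (Adgre1) were highest in replicate 2, as the list sum and Spp1 were. C1qb and Cd68 were highest in replicate 1, and C1qa, Fcgr1 and Mrc1 in replicate 3. Ptprc gave 12.17, 15.42 and 2.18 TPM and Emr1 0.1, 4.12 and 0 TPM. These genes and the list sum had the library order of Spp1, and the remaining genes did not. C1qb gave 22.3, 17.7 and 0 TPM, Cd68 25.4, 0 and 0 TPM, Csf1r 1.85, 8.24 and 1.95 TPM, and C1qa 0, 0 and 4.93 TPM. The genes after Lyz2 were named after their values were seen. A link to Spp1 was not tested. Endothelial genes summed to 1946, 1589 and 2901 TPM, with 10 of 10 above 1 TPM and Fabp4 at 1898 ± 629, Cldn5 at 46.2 ± 20.3 and Pecam1 at 40.5 ± 18.1 TPM as the highest. Most of each sum was Fabp4 alone, at 1750, 1356 and 2587 TPM. Pericyte and smooth muscle genes summed to 296, 244 and 289 TPM, with 5 of 9 above 1 TPM, and had their highest means at Acta2, Tagln and Rgs5. Mature fibre genes summed to 75.7, 79.2 and 177 TPM, with 4 of 8 above 1 TPM, and had their highest means at Tnnc2, Acta1 and Tnnt3. The endothelial and fibre lists were highest in replicate 3.

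Together the 10 members held 1293, 1367 and 1124 TPM in replicates 1, 2 and 3, or 0.126% ± 0.0125 of all transcripts measured. The total was lowest in replicate 3, where Sparc, Thbs1, Thbs4, Tnc and Spp1 each had their lowest value. Thbs2 and Postn had their highest value in that library.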

How the data were processed

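RNA was isolated from sorted ZsGreen-positive cells with a Picopure kit and sequenced as Illumina libraries, per the labels' protocols. The authors deposited 1 table of TPM with 20308 symbols, and its name marks it as renormalised without mitochondrial genes (0 symbols start with mt-). Its columns each sum to between 999999.85 and 1000000.3. The submitters' processing notes name the build mm10 and the tools CASAVA 1.8, Bowtie 0.12.9 and RSEM 1.2.3; settings, annotation and strandedness were not found in those sources. Since TPM of 0 may reflect an estimate that failed, such genes are said to be listed at 0.

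From the TPM, log2(TPM + 0.1) was fitted for 12822 genes with limma 3.58.1 in R 4.3.3 (intercept, moderated with a variance trend) and tested two-sided against 1, 10 and 100 TPM, with Benjamini-Hochberg adjustment over all genes; this was tested on simulated data. The scale understates folds of low genes. Pairs of members were compared within libraries by an exact sign-flip permutation test (Python 3.11.15). Positions and 31-base words of the longest coding transcripts are from GENCODE M21 (GRCm38, the assembly of mm10), promoter windows from RefSeq GRCm38.p6. The listed macrophage gene Adgre1 was read under its older symbol Emr1. Protein sequences were not used here.

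The members and lists were chosen with earlier results of these data known. Named by rule were all members, partner and relative genes above 100 TPM on average or at 0 in all libraries, and the 3 highest and the zero genes of each marker list; 1 marker list is not reported here. Alternatives were other pseudocounts, filters, scaling, no variance trend and leaving out each replicate.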

Additional observations from a re-analysis of the deposited data

How the results depend on the processing

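The counts of members above 1, 10 and 100 TPM were 9, 7 and 4 with a pseudocount of 0.01 or 1, with genes filtered at a mean of 0.1 TPM or above 0 in all libraries, and with median-ratio scaling. Without a variance trend they were 9, 6 and 2. With 1 replicate left out they ranged from 9 to 10, from 6 to 7 and from 3 to 4. Such fits have 2 libraries, and their p-values can be far lower than those from 3. For Thbs1 against 1 TPM the limma adjusted p was 8.21e-11 with 3 libraries and 4.25e-80 without replicate 3. Spp1, listed at 0 in replicate 3, changed direction against 1 TPM: its log2 difference of 0.77 became -0.23 with a pseudocount of 0.01 and -0.89 without replicate 2, over a range to 2.88 without replicate 3. The members' share of TPM was 0.126%, 0.125% with median-ratio scaling, 0.147% of the TPM outside ribosomal protein genes, where the denominator is smaller, and 0.121% to 0.133% with 1 replicate left out. The number of neighbouring pairs whose libraries did not overlap, 2 of 9, ranged from 3 to 5 with 1 replicate left out, where fewer values can overlap. The mean log2 difference changed sign for 5 pairs: Fn1 minus Postn (-0.10 without replicate 1, up to 0.39), Thbs4 minus Thbs1 (-0.15 without replicate 2, up to 0.29), and, without replicate 3, Thbs2 minus Thbs4 (-0.12, up to 0.56), Postn minus Tnc (-0.21, up to 0.56) and Thbs2 minus Thbs1 (-0.0337, up to 0.42). The number of all genes below 100 TPM, 10906, was 7132 when only genes above 0 in every library were tested. The causes of these changes were not tested, except where fewer values or a smaller denominator is named. No paired analysis was possible because there is 1 group. Depth is unknown, which limits every statement on genes listed at 0.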
